A study of Mus musculus with 6 samples.

Results

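In cultures of the mouse squamous carcinoma line SCC7, 40 of the 17030 genes of the deposited expression table were chosen for their low level after irradiation. Each had a mean of at least 5 FPKM (fragment counts divided by transcript length and by library total) in the controls, and its highest irradiated value was at most 0.6 times its lowest control value. These thresholds were met by 61 of 8265 genes with that control level (0.738%), while 239 of 8905 (2.68%) met the mirror-image thresholds upward. The 40 are those left after ribosomal protein genes (6 cytosolic), respiratory chain and mitochondrial ribosomal genes (1), predicted genes (4) and named cholesterol enzymes and other named genes (10) were set aside. The values that chose them are the same irradiated and control values given here, so their levels are a description and carry no test.

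The study's title concerns glutamine inhibition, CD47 blockade and ferroptosis (iron-dependent cell death by lipid peroxidation) after radiotherapy of head and neck cancer. The control group (treatment none, n = 3) and the irradiated group (radiotherapy, 9 Gy, n = 3) were both of the SCC7 line in high-glucose medium with 10% fetal bovine serum, and neither carried another agent or a genetic change by the labels. All 6 samples bear the time label day 0, so how long after irradiation the cells were harvested is not stated. Nothing states that the 3 samples of a group were separate cultures. The p-values given for other genes therefore set the group difference only against the scatter of these particular samples, and that scatter may be technical.

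The 40 genes have no single function. Several make or sense sterols: cholesterol synthesis runs through the mevalonate pathway, and when sterols are scarce the SREBP transcription factors leave the endoplasmic reticulum and switch its genes on. Others package DNA (core histones, the variant H2A.Z and linker histone H1.10), or repair and segregate it. The rest are receptor subunits, adhesion and matrix proteins, and enzymes of small-molecule metabolism.

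Summed FPKM ran from 693961 to 982553 among controls and from 652691 to 663489 among irradiated libraries. FPKM gives no read number, so the depth behind each value is unknown. The controls stood further apart (median standard deviation per gene 0.30 on the log2(FPKM + 1) scale, against 0.08 in the irradiated group), and control 3 correlated less with controls 2 and 1 (0.928 and 0.956) than these did with each other (0.989). Of 11 squamous epithelium markers, 6 were under 1 FPKM in every library, among them the keratins Krt5 and Krt14 and the adhesion genes Cdh1 and Epcam, while Krt8 and Krt18, keratins of simple epithelium, were abundant. That list summed to 716 to 1904 FPKM across controls and 501 to 511 across irradiated libraries, mostly Krt8 and Krt18. The 7 fibroblast markers summed to 142 to 243 and 196 to 220 FPKM. Of 5 tested, 3 were not called, namely Col3a1 (39.9 and 30.4 FPKM on average, log2 fold change -0.37), Col1a2 (0.05) and Pdgfra (0.17), while Col1a1 (mean 18.9 in controls, 45.9 irradiated) and Dcn (1.12 and 5.32) rose by limma, with adjusted p of 0.00474 and 0.0086. The Col1a1 call was lost without irradiated replicate 1 or 2 (adjusted p 0.0562 and 0.0619), and the Dcn call without control replicate 1 or with any 1 irradiated replicate left out (0.0531 to 0.0712). Leukocyte and endothelial marker sums were at most 1.03 and 0.63 FPKM in any library. The part of these markers in the results below was not tested.

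Across the 40 genes the irradiated mean lay between 5.87% and 57.4% of the control mean, leaving out Plac9a, and the median was 38.9%. Their control levels ran from 5.14 FPKM for Akip1 to 1304 FPKM for the histone gene H2ac24, with a median of 34.1. In 14 of the genes every irradiated value was under 0.5 of the lowest control, and Oaz1, Mpnd and Osgep were above 0.5 of the control also by the means. In limma on log2(FPKM + 1), 39 of the 40 passed the filter on low values and 38 were called lower, where 2.77% of all 11103 genes tested were (12% in either direction). The groups did not overlap for any of the 39, by the rule, where irradiated values lay wholly below the controls for 13.7% of all genes tested and wholly above for 31.8%. Since the rule used this contrast, nothing is read from these counts. The median log2 fold change was -1.23 (range -2.48 to -0.75), against 0.17 over all genes tested.

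**Figure D1:**
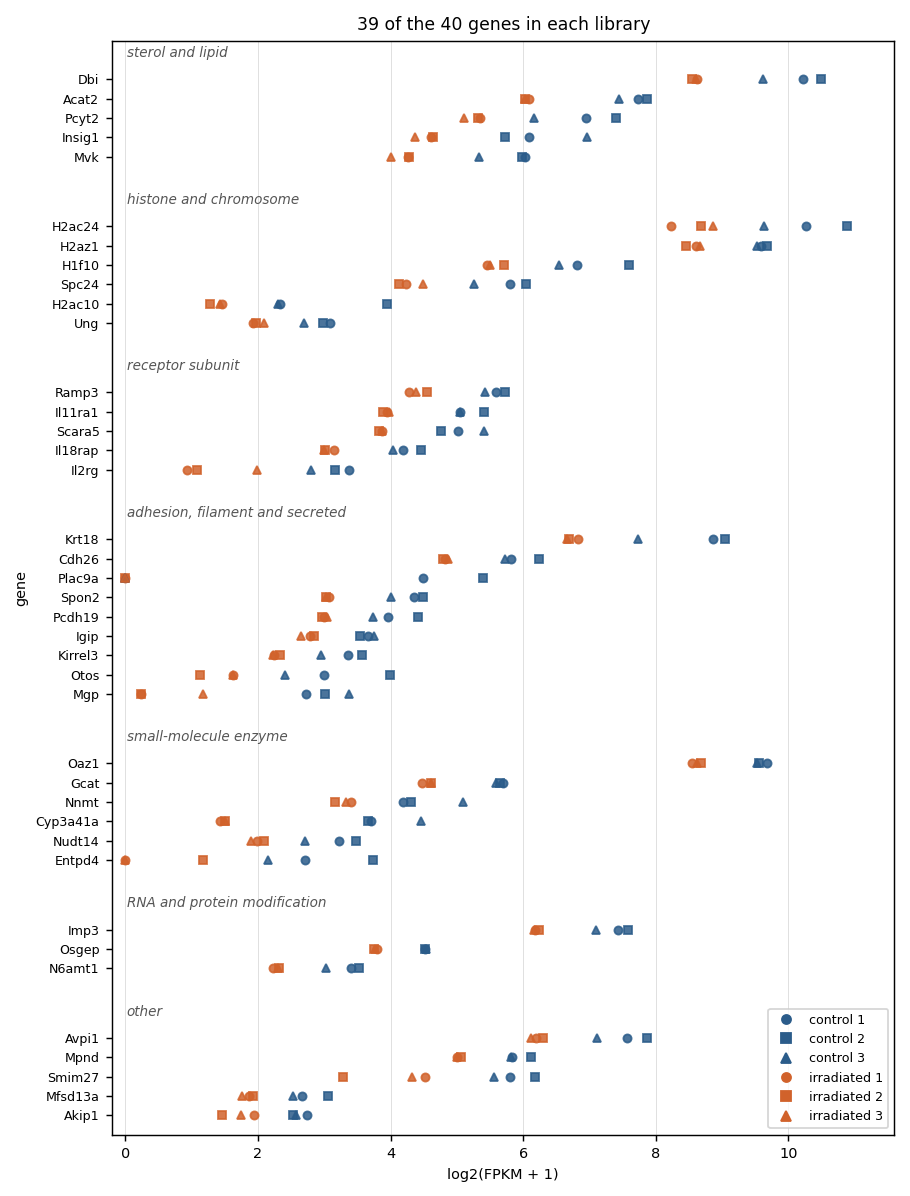
Level of 39 of the 40 genes in the 6 libraries, as log2(FPKM + 1) on the horizontal axis, grouped by role; blue marks are the 3 controls and orange marks the 3 irradiated samples. By the rule, every orange mark lies left of the blue marks of its gene except for Plac9a, whose control 3 is at 0 and lies under the irradiated marks.

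The distance between the groups depended on which control was taken. Control 3 was the lowest control for 31 of the 40 genes, where it was the lowest for 41.3% of the 8265 genes with a mean control of at least 5 FPKM. Control 2 was the highest for 27, against 32.6% of those genes. The irradiated mean was, at the median, 40.3% of control 1, 34.6% of control 2 and 48.4% of control 3. Over all genes at that level the corresponding medians were 103%, 110% and 102%. The coefficient of variation was larger among the controls than among the irradiated samples for 29 of 39 genes, with medians of 23.2% and 8.38%. Over all genes at that level these medians were 21.7% and 5.53%, so the wider controls are not particular to the 40. In 8 of the 39 genes the highest control was at least 2 times the lowest, and in 9 it was under 5/4 of the lowest. Osgep, Gcat, H2az1 and Oaz1 were among the steadiest, with controls within 1.11 times of each other.

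**Figure D2:**
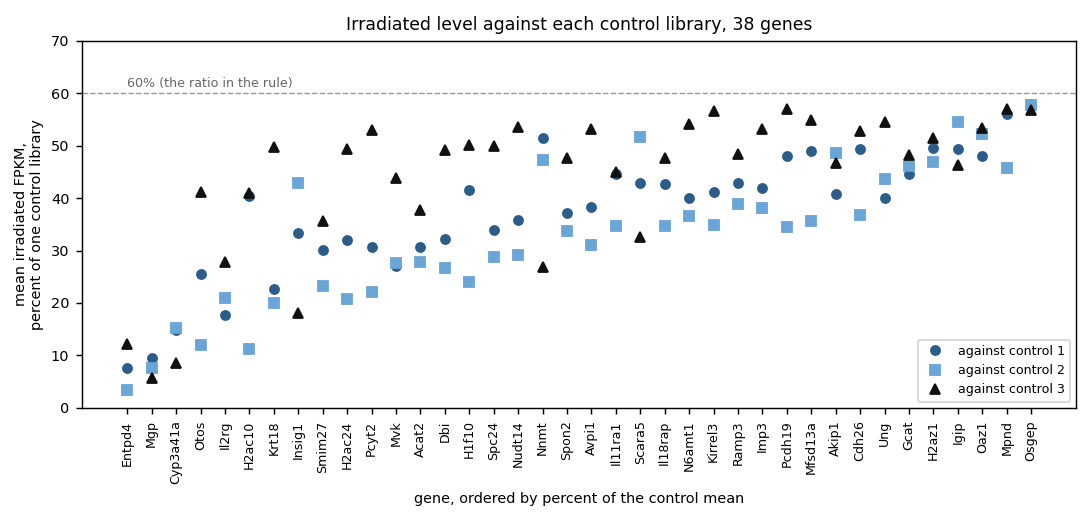
Mean irradiated FPKM as a percent of control 1, control 2 and control 3 separately (vertical axis) for 38 genes above 0 in every control, ordered along the horizontal axis by percent of the control mean. The 3 marks of a gene lie close together for Osgep (56.7% to 57.9%) and far apart for Krt18 (19.9% to 49.7%), and all are under the 60% of the rule.

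Genes at the threshold were close to those just beyond it. Just inside were Osgep (highest irradiated over lowest control 0.590), Mfsd13a (0.592), Kirrel3 (0.596), Ung (0.596) and Akip1 (0.598). Just outside were Nfib (0.6003), Gfra4 (0.602), Prrx2 (0.603), Cplx2 (0.604) and Mmab (0.604). Plac9a met the ratio because it was listed at 0 in every irradiated sample, against 21.5, 41.2 and 0 FPKM in controls 1 to 3. Its control 3 was thus no higher than its irradiated values. Its near copy Plac9b, to which the same reads could be assigned, was 15.8 to 25.8 in the controls and 9.09 to 11.5 after irradiation.

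Of the sterol and lipid genes, the sequences before the start sites are shown first, because the promoters of sterol genes are where SREBP and its partner NF-Y, which binds CCAAT, act. The sequences are from RefSeq, build GRCm38.p6, 5′ to 3′ on the strand of the gene. The search looked for CCAAT and for CACCCCA, a core of a sterol element, on both strands. Capitals mark a match, so ATTGG is CCAAT on the other strand. Acat2 is shown for chr17:12960726-12960975 (minus strand), Insig1 for chr5:28071162-28071411 (plus strand), and the 190 bases between the starts of Mvk and Mmab, which lie head to head, for chr5:114444074-114444263 (plus strand).
Acat2: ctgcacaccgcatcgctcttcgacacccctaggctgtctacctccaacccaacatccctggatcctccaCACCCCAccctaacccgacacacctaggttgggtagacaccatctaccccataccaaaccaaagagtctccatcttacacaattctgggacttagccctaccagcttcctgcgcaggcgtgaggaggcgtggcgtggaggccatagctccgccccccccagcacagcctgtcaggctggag
Insig1: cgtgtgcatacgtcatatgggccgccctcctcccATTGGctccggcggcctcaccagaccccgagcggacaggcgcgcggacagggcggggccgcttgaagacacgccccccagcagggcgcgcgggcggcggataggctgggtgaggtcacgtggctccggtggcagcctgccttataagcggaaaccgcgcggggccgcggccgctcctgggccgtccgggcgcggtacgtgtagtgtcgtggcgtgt
Mvk-Mmab: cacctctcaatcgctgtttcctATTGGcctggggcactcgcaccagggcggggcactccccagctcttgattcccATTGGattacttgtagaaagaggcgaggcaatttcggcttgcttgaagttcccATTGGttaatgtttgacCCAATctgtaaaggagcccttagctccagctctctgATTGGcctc
The interval between Mvk and Mmab holds 5 CCAAT matches, and the 300-base promoter window of Mvk holds as many. Of 6735 genes of at least 5 FPKM with promoter windows of that length, 0.698% hold 5 or more in any window, and a gene can have several windows. Acat2 has 1 CACCCCA and Insig1 has 1 CCAAT in the stretches shown, and 9.21% of those genes have CACCCCA in any window. The E box CACGTG that Insig1 also has is left in lower case. A match in these letters is a description and was not tested as a binding site.

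By the rule, the 4 members on the list of SREBP targets were lower in every irradiated sample than in every control. That list leaves out the cholesterol enzymes that the rule sets aside by name, among them Sqle and Lss, which also met the thresholds. Acat2, cytosolic acetoacetyl-CoA thiolase at the entry to the mevalonate pathway, was 212, 233 and 173 FPKM in controls 1 to 3 and 66.9, 64.5 and 64.0 in irradiated 1 to 3. Mvk (mevalonate kinase) was 64.0, 62.5 and 39.4 against 18.3, 18.5 and 15.1. Control 3 of Mvk was well under its other controls. Insig1, the membrane protein that holds SREBP and its escort in the endoplasmic reticulum when sterols are plentiful, was 66.9, 51.9 and 123.6 against 23.4, 23.9 and 19.6. Control 3 was the highest control for Insig1, the reverse of its place for Acat2 and Mvk. Mean irradiated levels were 31.6% of the control mean for Acat2, 31.2% for Mvk and 27.6% for Insig1.

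Of 27 others on this list, without the cholesterol enzymes set aside by name, 5 fell by limma, 0 rose and 22 were not called. Of all genes tested, 2.77% fell and 9.24% rose. At an unadjusted p below 0.05, 17 of the 27 were lower and 1 was higher, but no share of all genes at that threshold is given here. The median log2 fold change of the 27 was -0.58 (0.17 over all genes tested), and 24 were below 0, with Lpin1, Me1 and Acly above it. Tmem97 fell by 0.94 on the log2 scale (SE 0.16, adjusted p 0.0204), Elovl6 by 0.92, Fads2 by 0.87, Mmab by 0.84 and Aacs by 0.70. Mmab, which shares the interval shown above with Mvk, was 8.01, 8.51 and 10.4 FPKM in the controls and 4.84, 4.71 and 4.14 after irradiation. Control 3 was the highest control of Mmab, unlike in Mvk. Of the genes for the SREBP factors themselves, Srebf1 (log2 fold change -0.60, adjusted p 0.052) and Srebf2 (-0.56, 0.121) were not called. Lpin1 was at 0.63 (adjusted p 0.113). All 5 calls were lost without control replicate 1 (adjusted p 0.0685 to 0.158), with any 1 irradiated replicate left out (0.119 to 0.208), and after rescaling each library to a common total (0.0637 to 0.312).

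**Figure D3:**
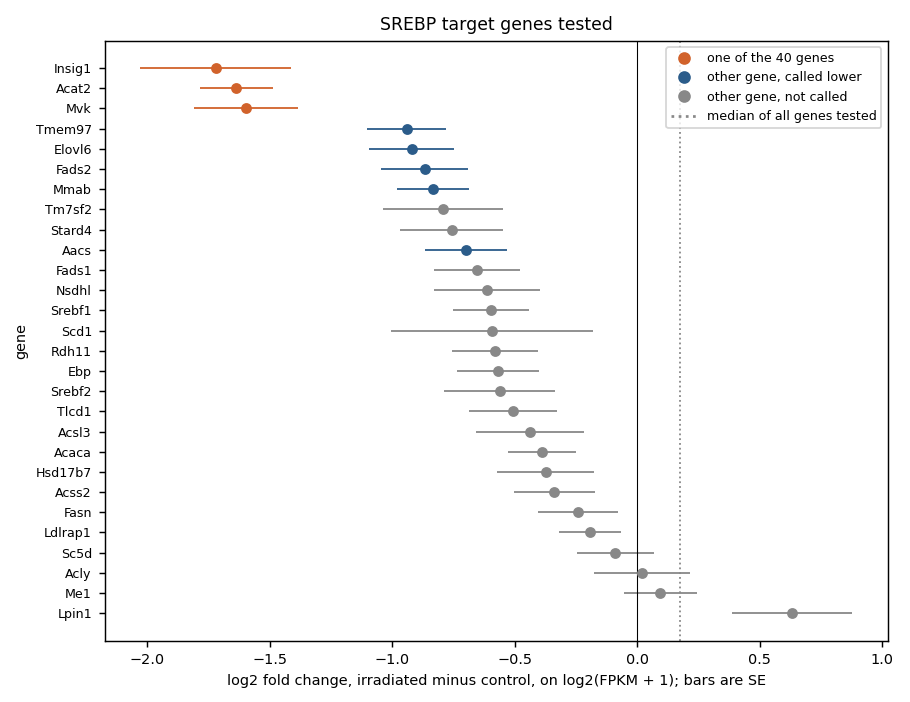
Log2 fold change, irradiated minus control on log2(FPKM + 1), with its SE as a bar, for 28 tested genes of the SREBP target list. That list leaves out the cholesterol enzymes set aside by name. The 3 chosen genes drawn (orange) lie at the low end by choice, the 5 others that fell (blue) lie between -0.94 and -0.70, and the dotted line is the median of all genes tested, 0.17.

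Dbi and Pcyt2 are lipid genes outside that list. Dbi, the acyl-CoA-binding protein, was 1198, 1440 and 782 FPKM in the controls and 393, 372 and 389 after irradiation. Its controls varied 1.84-fold while its irradiated values were nearly equal. Pcyt2, which makes CDP-ethanolamine for phosphatidylethanolamine, was 122, 169 and 70.5 FPKM against 39.5, 38.9 and 33.7. Etnk1, the ethanolamine kinase of the step before it, was 9.53, 6.78 and 18.8 against 28.3, 30.1 and 24.98, with a log2 fold change of 1.29 that limma did not call (adjusted p 0.0509).

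Among the histone and chromosome genes, the H2A genes H2ac24 and H2ac10 are single-exon genes of the large histone cluster on chromosome 13. Core histone genes of this kind are read mainly in S phase, and NF-Y sites are common before them, so their upstream stretches are shown with CCAAT in capitals. In H2ac24, TTCAAA in capitals is the CHR element TTTGAA (a cell cycle motif) on the other strand. The stretch of H2ac24 is chr13:21833476-21833725 (minus strand) and that of H2ac10 is chr13:23533625-23533874 (plus strand), from RefSeq, build GRCm38.p6.
H2ac24: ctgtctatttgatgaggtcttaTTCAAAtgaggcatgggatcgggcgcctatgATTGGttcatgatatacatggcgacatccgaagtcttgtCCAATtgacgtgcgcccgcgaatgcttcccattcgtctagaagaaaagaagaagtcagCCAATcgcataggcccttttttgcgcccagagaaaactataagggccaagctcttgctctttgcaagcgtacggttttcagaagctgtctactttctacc
H2ac10: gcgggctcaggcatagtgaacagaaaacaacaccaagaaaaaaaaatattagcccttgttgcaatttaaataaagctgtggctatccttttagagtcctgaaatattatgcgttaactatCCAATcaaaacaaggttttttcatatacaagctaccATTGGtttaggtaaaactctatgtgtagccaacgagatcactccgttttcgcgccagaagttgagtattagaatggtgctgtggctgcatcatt
H2ac24 has 3 CCAAT matches here and H2ac10 has 2, and 6.65% of the 6735 genes hold at least 3 in any promoter window. The other members with at least 3 were Il11ra1, Mvk, H2az1 and Avpi1.

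H2ac24 was the most abundant of the 40 genes in the controls, at 1225, 1893 and 793 FPKM, and was 300.1, 409 and 464 after irradiation. Its controls differed 2.39-fold. H2ac10 was 4.01, 14.4 and 3.95 FPKM against 1.75, 1.41 and 1.69. The high mean of H2ac10 rests on control 2: its log2 fold change was -1.47 with all samples and -0.93 without that library, and it was the member that limma did not call (adjusted p 0.066). Of the other 39 core histone genes of the replication-dependent kind that were tested, 31 were above 0. Their median log2 fold change was 0.50 (0.17 over all genes tested). Most were low: only 6 core histone genes, H2ac24 and H2ac10 included, had a mean control of at least 5 FPKM. The others of these 6 were H2bc4, H2ac23, H2ac18 (log2 fold change 0.45, adjusted p 0.13 by limma) and H4c9 (-0.22, 0.392). At an unadjusted p below 0.05 by limma, 0 were lower and 14 higher, but no share of all genes at that threshold is given here. After adjustment 0 fell and 5 rose, against 2.77% and 9.24% of all genes tested. The 5 were H2bc4, H2bc18, H2bc23, H2ac19 and H4c11, of which H2bc4 alone reached 5 FPKM in the controls or after irradiation on average, and 0 core histone genes outside the 40 were called when any 1 irradiated replicate was left out. Across the scalings that median ran from 0.19 with quantile normalization (1 fell, 3 rose) to 0.80 with a common total (0 fell, 9 rose) and 0.92 after length and GC correction (0 fell, 11 rose), and without control replicate 3 it was 0.41 (1 fell, 16 rose). H2ac23, another H2A gene, was 160, 233 and 132 FPKM in the controls and 277, 312 and 317 after irradiation (log2 fold change 0.82, adjusted p 0.0562). H2bc4, an H2B gene, rose from 20.6 ± 8.46 to 57.8 ± 2.10 FPKM (SD, n = 3 samples a group; limma adjusted p 0.0313). The H2bc4 call was lost without control replicate 1 (adjusted p 0.113), with any 1 irradiated replicate left out (0.153 to 0.188) and with trimmed-mean scaling (0.0525). H2A genes code for nearly the same protein, but how alike the transcripts of H2ac24 and H2ac23 are was not examined. Whether reads could be assigned to either copy is therefore not known, and the split between them is uncertain.

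H2az1, the variant histone H2A.Z found at promoters, was 770, 815 and 741 FPKM in the controls and 391, 350.0 and 404 after irradiation. Its controls were within 1.10 times of each other. H1f10, a linker histone that is not tied to S phase, was 111, 193 and 92.1 against 43.0, 51.3 and 44.3. Among 17 other histone variants and high mobility group genes tested, the median log2 fold change was -0.20. At an unadjusted p below 0.05 by limma, 5 were lower and 0 higher, but no share of all genes at that threshold is given here. After adjustment 3 fell and 0 rose, against 2.77% and 9.24% of all genes tested. The 3 that fell were H2ax, the variant phosphorylated at DNA breaks (log2 fold change -1.11, adjusted p 0.0275), Hmgn2 (-1.29, 0.0365) and the centromere histone Cenpa (-1.10, 0.0464). The 3 calls were lost without control replicate 1 (adjusted p 0.129 to 0.171), without control replicate 2 (0.0586 to 0.0927) and with any 1 irradiated replicate left out (0.119 to 0.208). The linker histone H1f0 fell by 0.93 on the log2 scale (adjusted p 0.0298), and that call was lost without control replicate 1 or 2 (0.0829 and 0.0527), with any 1 irradiated replicate left out (0.164 to 0.188), with quantile normalization (0.196) and with rescaling to a common total (0.131). H2az2, which codes for a second H2A.Z, was at -0.49 (adjusted p 0.0529).

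**Figure D4:**
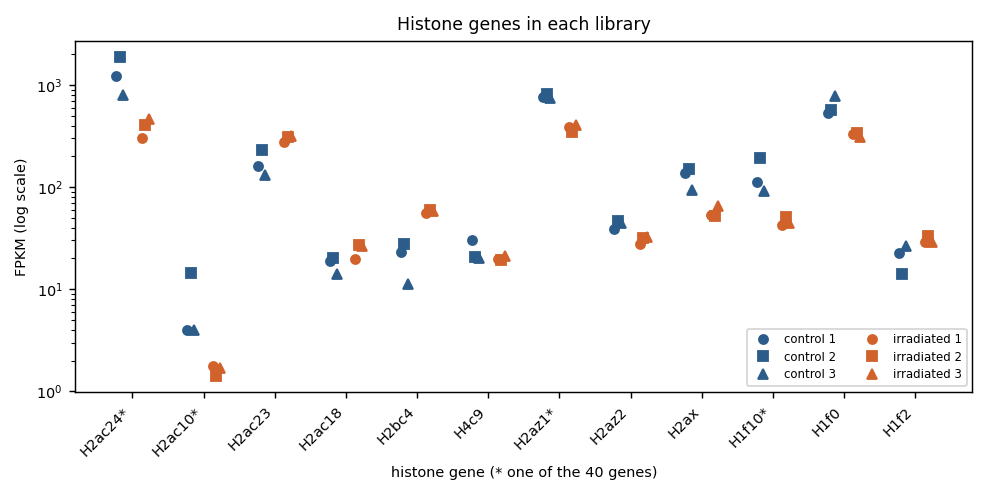
FPKM on a log scale for 12 histone genes in each library, controls in blue and irradiated samples in orange; an asterisk marks one of the 40 genes. H2ac24, H2ac10, H2az1 and H1f10 lie lower in the irradiated samples, while H2ac23 (132 to 233, then 277 to 317) and H2bc4 lie higher.

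Spc24, a subunit of the NDC80 complex that ties kinetochores to microtubules, was 54.9, 64.8 and 37.3 FPKM in the controls and 17.9, 16.5 and 21.5 after irradiation. Its partners in the complex were not called: Spc25 was at a log2 fold change of -0.36 (adjusted p 0.0932), Ndc80 at -0.36 (0.149) and Nuf2 at -0.18 (0.32). Ung, the glycosylase that removes uracil from DNA, was 7.5, 6.87 and 5.5 FPKM against 2.78, 2.93 and 3.28. The lowest control of Ung was control 3. Dut, which keeps dUTP out of DNA by hydrolysing it, fell from 58.8 ± 3.61 to 36.1 ± 1.6 FPKM (SD, n = 3 samples a group; limma adjusted p 0.0188). Smug1, another uracil-DNA glycosylase, rose from 4.98 ± 0.43 to 8.99 ± 0.62 (adjusted p 0.0226), and Mbd4, which removes thymine or uracil mispaired with guanine, rose from 1.82 ± 0.63 to 3.67 ± 0.38 (0.0495). Apex1, which cuts at the site such enzymes leave, was at -0.80 (0.0551). The Dut and Smug1 calls were lost without control replicate 1 (0.0969 and 0.101) and with any 1 irradiated replicate left out (0.129 to 0.187), and the Mbd4 call with any 1 sample but control 3 left out (0.0986 to 0.217). With values rescaled to a common total Dut was not called (0.131), and with quantile normalization Smug1 and Mbd4 were not (0.083 and 0.132). Mbd4 was also not called with trimmed-mean scaling (0.056) or a common total (0.052).

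The 5 receptor genes, lower in every irradiated sample by the rule, were at 21.4% to 43.0% of the control mean. Il11ra1, the chain that binds interleukin 11, was 32.2, 41.4 and 31.9 FPKM in the controls and 14.5, 13.8 and 14.8 after irradiation. Its signalling partner Il6st was 11.5, 10.4 and 31.0 against 27.0, 24.1 and 26.5 (log2 fold change 0.69, adjusted p 0.217), with control 3 above every irradiated value. In GENCODE M21 the span of Il11ra1 (longer than in RefSeq) overlaps several genes on the opposite strand, among them Dctn3 (76.4 to 199 FPKM in the controls, 88.8 to 92.9 irradiated) and Rpp25l (31.8 to 93.7 and 33.7 to 35.8). Whether counting used strand is not given in the sources used here, so reads of these genes and of Il11ra1 cannot be told apart where they overlap.

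Il2rg, the common gamma chain shared by the receptors of interleukins 2, 4, 7, 9, 15 and 21, was 9.33, 7.91 and 5.93 FPKM in the controls and 0.90, 1.12 and 2.94 after irradiation. Of the chains that pair with it, Il2ra, Il2rb, Il9r and Il21r were under 1 FPKM in every library. Il4ra was 7.44 to 8.53 in the controls and 10.3 to 11.0 after irradiation (log2 fold change 0.36, adjusted p 0.0852). Il15ra rose from 1.34 ± 0.64 to 5.74 ± 1.30 FPKM (SD, n = 3 samples a group; limma adjusted p 0.0139). Among ligands, Il7 rose from 4.33 ± 0.96 to 7.98 ± 0.28 (0.036), and Il15 was at 0.89 (0.0549). The Il15ra and Il7 calls were lost without control replicate 1 (0.0831 and 0.143) and with any 1 irradiated replicate left out (0.0861 to 0.197), Il7 also without control replicate 2 (0.0658) and with quantile normalization (0.062). After length and GC correction the log2 fold change of Il7 went from 0.77 to 0.27 (adjusted p 0.133).

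Il18rap, the accessory chain of the interleukin 18 receptor, was 17.2, 21.1 and 15.4 FPKM against 7.88, 7.10 and 6.99, while the binding chain Il18r1 was at most 0.13 in any library. Ramp3, which carries the calcitonin receptor-like receptor to the cell surface, was 47.3, 52.1 and 41.8 against 18.4, 22.5 and 19.9. That receptor, Calcrl, was 0.19, 0.26 and 3.24 in the controls and 1.45, 0.98 and 1.20 after irradiation, so the chains these receptor genes pair with were near 0 for Il18rap and low for Ramp3. Scara5, a scavenger receptor that takes up ferritin, was 31.5, 26.2 and 41.4 against 13.7, 13.2 and 13.6.

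The 9 adhesion, filament and secreted genes ranged in control level from Otos, Mgp and Kirrel3, all under 10 FPKM, to Krt18. Krt18, a keratin of simple epithelium, was 465, 528 and 212 FPKM in the controls and 113, 103 and 100.3 after irradiation. Its partner in the filament, Krt8, was 1249, 1361 and 487 against 371, 393 and 391, and limma did not call it (log2 fold change -1.29, adjusted p 0.0686). Control 3 was the low control for both. The groups did not overlap for Krt18, by the rule, or for Krt8, where irradiated values lay wholly below the controls for 13.7% of all genes tested. Cdh26, a cadherin, was 55.3, 74.3 and 51.8 against 27.3, 26.6 and 28.1.

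Mgp, matrix Gla protein, an inhibitor of calcification, was 5.60, 7.03 and 9.34 FPKM in the controls and 0.18, 0.18 and 1.25 after irradiation. At 7.33% of its control mean it was among the lowest of the 40, together with Entpd4 and Cyp3a41a. Spon2, a secreted matrix protein, was 19.4, 21.4 and 15.1 against 7.39, 7.13 and 7.11. Otos (otospiralin, known from the inner ear) was 6.97, 14.9 and 4.33 against 2.07, 1.18 and 2.09, with a 3.43-fold range in the controls. The cell adhesion genes Pcdh19 (protocadherin 19) and Kirrel3 were at 44.5% and 42.5% of the control mean, and Igip, a small secreted protein gene with 1 exon, at 49.9%. Of other protocadherins, Pcdh1 rose from 11.1 ± 2.66 to 23.4 ± 0.92 FPKM (limma adjusted p 0.0204) and Pcdh7 from 5.04 ± 1.07 to 8.57 ± 0.40 (0.0476; SD, n = 3 samples a group). Both calls were lost without control replicate 1 (0.11 and 0.133) and with any 1 irradiated replicate left out (0.135 to 0.21), and Pcdh7 also without control replicate 2 (0.0721) and with quantile normalization (0.156) or trimmed-mean scaling (0.059). After length and GC correction the log2 fold change of Pcdh7 went from 0.68 to 0.15 (adjusted p 0.506).

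The small-molecule enzymes include the most reduced level, leaving out Plac9a, and one of the steadiest. Entpd4, a nucleoside diphosphatase of Golgi and lysosome, was 5.54, 12.3 and 3.42 FPKM in the controls and 0, 1.25 and 0 after irradiation. Its near copy Entpd4b was 11.2, 8.28 and 10.7 against 14.3, 13.3 and 14.3 (log2 fold change 0.44, adjusted p 0.0821), and reads of the pair could be assigned to either. Cyp3a41a, a liver-type P450 of the CYP3A subfamily, was 12.04, 11.64 and 20.96 against 1.70, 1.82 and 1.82. The related Cyp3a13 was 9.33, 14.8 and 6.34 against 10.3, 8.35 and 7.56, where the groups overlap, and the near relatives Cyp3a44, Cyp3a57 and Cyp3a59 were under 1 FPKM throughout.

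Oaz1, the antizyme that binds ornithine decarboxylase and sends it to degradation, was 814, 751 and 734 FPKM in the controls and 374, 408 and 392 after irradiation. Its target Odc1 was 361, 303 and 311 against 315, 298 and 288 (log2 fold change -0.11, adjusted p 0.565). The later polyamine enzymes Srm (-0.72, 0.118) and Sms (-0.37, 0.128) were not called. Gcat, which cleaves the threonine product 2-amino-3-ketobutyrate to glycine in mitochondria, was 50.8, 49.1 and 47.0 against 21.1, 23.4 and 23.4. Nnmt, which methylates nicotinamide, was 17.2, 18.8 and 33.0 against 9.54, 7.96 and 9.03, and Nudt14, a UDP-glucose pyrophosphatase, was at 37.1% of its control mean.

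Of the 3 genes for RNA and protein modification, Osgep had the smallest gap and the tightest groups. Osgep, the catalytic subunit of the KEOPS complex that modifies tRNA, was 21.9, 21.9 and 22.3 FPKM in the controls and 12.9, 12.5 and 12.5 after irradiation. Imp3, a protein of the U3 particle that processes ribosomal RNA, was 172, 189.9 and 136 against 71.7, 74.3 and 70.7. Its partner Mphosph10 was at a log2 fold change of 0.20 (adjusted p 0.231). N6amt1, a protein methyltransferase, was 9.62, 10.5 and 7.11 against 3.69, 3.96 and 3.91, and its activator Trmt112 was at -0.85 (0.076).

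The last 5 genes have fewer known ties. Avpi1, a vasopressin-induced gene, was 189, 234 and 137 FPKM in the controls and 72.2, 77.6 and 68.1 after irradiation. Smim27, a small membrane protein gene, was 55.0, 71.4 and 46.4 against 22.0, 8.73 and 19.0, and irradiated 2 was the low library. In GENCODE M21 Smim27 overlaps Ndufb6 (105 to 161 FPKM in the controls, 91.7 to 99.0 irradiated) and Topors (13.6 to 16.7 and 24.5 to 27.5) on the opposite strand, from which its reads cannot be told apart without strand. Mpnd, Mfsd13a and Akip1 were at 52.4%, 44.97% and 45.04% of their control means. In bulk samples such as these, fewer cells that express a gene and less RNA per cell cannot be told apart.

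Of 71 partner genes chosen for the 40 after these were known, 6 rose, 3 fell, 51 were not called and 11 were too low to test, where 9.24% of all genes tested rose and 2.77% fell. The lists of other functions that hold none of the 40 (17 with a gene tested, 314 genes) had 16 that fell and 6 that rose, with list medians from -0.63 to 0.26.

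The 40 genes had shorter transcripts than the genes above the same control floor, a set not matched to them on level. The median transcript was 1698 nt, against 2914 nt for 8195 genes with a mean control of at least 5 FPKM and a known transcript. The median coding length was 838 nt against 1257 nt, the GC content 54.2% against 50.5%, and the number of exons 6 against 9. Single-exon genes made up 12.5% of the 40 (H2ac10, H2ac24, H1f10, Imp3 and Igip) and 1.67% of the comparison set. Transcripts ranged from 399 nt for H2ac10 to 10289 nt for Pcdh19. After each library was corrected for its trend with length and GC, all 39 tested genes remained below 0. Their median log2 fold change was -1.26, where all genes had -0.03. Since the rule used this contrast, nothing is read from their direction.

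**Figure D5:**
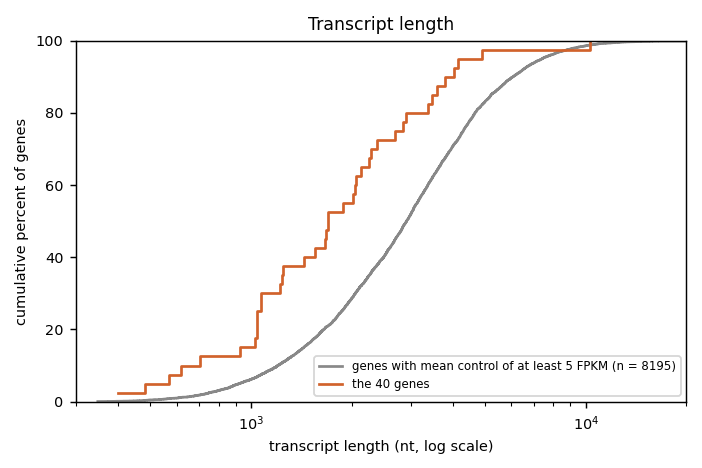
Cumulative percent of genes (vertical axis) against transcript length in nt on a log axis, for the 40 genes (orange) and 8195 genes with a mean control of at least 5 FPKM (grey). The orange curve lies left of the grey one over most of its length, with medians of 1698 and 2914 nt.

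A promoter window was on hand for 30 of the 40 genes. A gene was counted for a motif if any of its windows held it, among the 30 and among 6735 genes of at least 5 FPKM. CCAAT was present in 16 of 30 (53.3%, against 43.6% of the 6735 genes), CACCCCA in 4 (13.3% against 9.21%), the E box CACGTG in 6 (20.0% against 12.4%), TATAAA in 3 (10.0% against 8.14%), and the CHR forms TTTGAA or TTCGAA in 3 (10.0% against 16.6%), each on either strand. The 4 with CACCCCA were Acat2, Otos, Dbi and N6amt1. The genes lay on 19 chromosomes. Chromosome 5 held 5 of them (Insig1, Mvk, Ung, Spon2 and Cyp3a41a), and Ung and Mvk were 304942 bases apart.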

How the data were processed

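RNA from 3 control and 3 irradiated SCC7 samples was sequenced after removal of ribosomal RNA, per the labels' protocols. The authors deposited FPKM per gene, per the file headers, in 1 table of 17030 genes; the submitters' processing notes name HISAT and GRCm38.p6. Counting tool, annotation, strand setting and filters: not given in the sources used here. FPKM depends on assigned transcript length and on each library's total, so a few abundant genes shift all others.

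The 40 genes were taken by the stated thresholds. Members, lists, partners and roles were chosen with earlier results of these data known. Genes reaching 1 FPKM in 3 or more samples entered limma 3.58.1 on log2(FPKM + 1) (R 4.3.3, trend and robust options), irradiated minus control, Benjamini-Hochberg adjustment over 11103 genes, called below 0.05. This scale understates the change of low genes. Coordinates and promoters (250 bases before to 50 after a start) came from RefSeq, lengths, GC and exons from GENCODE M21, both GRCm38. All 40 genes matched.

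Named by rule were the 12 members of lowest ratio, the 12 of highest control level, the 5 nearest each side of the threshold, and members of a functional list. Other members, and all partner genes, were named by role after their values were seen. Alternatives were quantile, trimmed-mean and common-total scaling, length and GC correction, other filters, pseudocount 0.1, no trend or robust options, a replicate block, each sample left out, other thresholds, and single controls. The fit was tested on simulated data. Results for a few genes are counted in the totals but not reported here by name.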

Additional observations from a re-analysis of the deposited data

How the results depend on the processing

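All 39 tested members stayed below 0 under quantile, trimmed-mean and common-total scaling and under length and GC correction. The rule chose them for a wide gap in that direction, so nothing is read from this. The results below depended on scaling and on single libraries, and the cause was not tested. The number of genes that meet the rule was 40, and became 67 with quantile normalization, 61 with trimmed-mean scaling, 17 with values rescaled to a common total, 62 after length and GC correction, 15 at a ratio of 0.5 and 105 at 0.7; leaving out 1 sample at a time gave 42 to 510, the highest without control replicate 3. With 1 control in place of 3, an alternative chosen after seeing the data, it was 548, 928 and 222 for controls 1, 2 and 3. Of the 40 genes, 36 were still among those that met it with quantile normalization, 40 with trimmed-mean scaling, 17 with a common total, 33 after length and GC correction, and 34 with control 3 alone.

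Over all genes 1334 were called, 1026 higher and 308 lower (76.9% higher). The split was 647 higher and 572 lower with quantile normalization, 721 and 431 with trimmed-mean scaling, 1428 and 137 rescaled to a common total, and 836 and 881 after length and GC correction. The median over all genes, on the log2 scale, was 0.17 as deposited, -0.01, 0.03, 0.50 and -0.03 under these 4, and that of the members -1.23, -1.36, -1.38, -0.92 and -1.26. A filter at 5 FPKM left 727 calls. Leaving out 1 sample gave 56 to 7638 calls, 10 to 2571 of them lower: 180, 548 and 7638 without controls 1, 2 and 3, and 56, 65 and 99 without irradiated 1, 2 and 3. Control 3 as the only control gave 4093 calls, 1579 lower. Of the 39 members, 30 were called lower after rescaling to a common total and 7 without control replicate 1. Without irradiated replicates 1, 2 and 3 the counts were 3, 3 and 6. Of all genes tested under these settings, 1.2%, 0.145%, 0.0921%, 0.0921% and 0.129% were called lower. The rule used this contrast, so nothing is read from the member counts.

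Same-numbered samples did not deviate together (correlations -0.12, 0.02 and -0.16). With few samples and little spread among the irradiated ones, these values cannot exclude that the numbers pair them. With a replicate block 300 genes were called, 40 of them lower (0.36% of all genes tested), with 19 members among these 40. Of the SREBP list and the histone list outside the rule 0 were called lower.

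Of SREBP targets outside the rule, 5 fell. The count was 11 with quantile normalization, 12 with trimmed-mean scaling, 0 rescaled to a common total and 18 after length and GC correction. Leaving out 1 sample gave 0 to 18. Of histone variants and high mobility group genes, 3 fell. This count was 6 after length and GC correction, 1 with no filter and 0 to 8 leaving out 1 sample. The share of all genes tested that fell moved as well. It was 2.77% as deposited, 5.2% with quantile normalization, 3.89% with trimmed-mean scaling and 1.2% with a common total. After length and GC correction it was 8.12%, with no filter 1.37%, and leaving out 1 sample 0.0921% to 23.3%.

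Some uncalled log2 fold changes turned direction. Rescaled to a common total, Nuf2 was 0.16, Odc1 0.25 and Cyp3a13 0.19. Odc1 was 0.18 with quantile normalization. Leaving out 1 sample gave -0.40 to 0.15 for Cyp3a13 (the highest without control replicate 2) and -0.0701 to 0.33 for Calcrl (-0.0701 without control replicate 1, -0.03 without control replicate 2). With control 3 alone Il6st was -0.26, Cyp3a13 0.40, Calcrl -0.95, Dctn3 0.24 and Rpp25l 0.11. With trimmed-mean scaling Me1 was -0.0629, Acly -0.14 and Col1a2 -0.11, and after length and GC correction Me1 was -0.21, Acly -0.28, Col1a2 -0.22 and Pdgfra -0.29. With control 3 alone these were -0.10 for Me1, -0.25 for Acly, -0.57 for Col1a2 and -0.23 for Pdgfra. Leaving out 1 sample gave -0.0262 to 0.19 for Me1, -0.19 to 0.15 for Acly, -0.14 to 0.36 for Col1a2 and -0.0364 to 0.37 for Pdgfra, each lowest without control replicate 2.

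FPKM gives no depth, so values near 0 (Entpd4, Mgp, Plac9a) carry an unknown counting error.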
